A study of Saccharomyces cerevisiae with 2 samples.

Results

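The mitochondrial pyruvate dehydrogenase complex of budding yeast was examined through 8 genes, chosen by name: the subunit genes PDA1, PDB1, LAT1, PDX1 and LPD1, the kinase genes PKP1 and PKP2, and the phosphatase gene PTC5. They are 8 of 5449 genes measured on Affymetrix arrays, and each was read by a single probe set whose name carries no suffix for possible cross-hybridization. Total RNA was compared between 2 BY4741 derivatives of mating type a, both with the alleles his3delta1, leu2delta0, met15delta0 and ura3delta0 and with the chromosomal ACS2 gene replaced by HygMX. A centromeric URA3 plasmid supplied wild-type ACS2 (pHT112-1) in the control strain and the temperature-sensitive allele acs2-Ts1 (pHT215) in the mutant. Both cultures grew in YPD, a rich glucose medium, and were kept at 37 °C for 60 min. Each group is 1 deposited sample, the authors' mean of 2 arrays, so nothing could be tested between the strains, and "higher" and "lower" always describe acs2-Ts1 relative to wild-type ACS2. No sample at a lower temperature was analysed here, so a difference between the strains or plasmids at any temperature and an effect of the impaired enzyme cannot be told apart. In a bulk culture, fewer transcripts per cell and fewer cells with the transcript cannot be told apart either.

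The complex turns pyruvate into acetyl-CoA inside mitochondria and so joins glycolysis to the tricarboxylic acid cycle. Its E1 component, made of the alpha subunit Pda1 and the beta subunit Pdb1, decarboxylates pyruvate with thiamine diphosphate. Its E2 component Lat1 passes the acetyl group from a lipoyl arm to coenzyme A, and its E3 component Lpd1 reoxidizes that arm and is held to the E2 core by the binding protein Pdx1. The kinases Pkp1 and Pkp2 switch the complex off by phosphorylating Pda1, and the phosphatases Ptc5 and Ptc6 reverse this. Acs2 makes acetyl-CoA from acetate outside the mitochondria, on the parallel route through pyruvate decarboxylase and acetaldehyde dehydrogenase, and yeast moves little acetyl-CoA from mitochondria to the cytosol on glucose.

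Most of the genome was lower in acs2-Ts1, and the genes that check the strain labels gave mixed readings. STE2, the pheromone receptor of a cells, read 3398 and 2089.9 in wild type and acs2-Ts1, while STE3, the receptor of the opposite mating type, read 214 and 59.0. The deleted LEU2 read 68.0 and 77.5, and MET17, the current name of the deleted MET15, 47.9 and 77.5. HIS3, labelled with the allele his3delta1, read 1650.1 and 882, and whether its probes lie outside the altered part was not tested. The plasmid marker URA3 was 3.81-fold higher, at 1853 and 7059.5, and its part in the results was not tested. The median log2 ratio over all genes was -1.12, and the median intensity was 586 and 259, on a scale that rests on the authors' normalization to controls. As a measure of scatter within arrays, 27 hybridization controls of bacterial and phage origin, which may be those the authors fitted on, varied in log2 ratio with an SD of 0.17, and the pooled SD among several probe sets for a gene was 0.43 over 47 genes. These spreads are not replicate error.

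All 8 genes were lower in acs2-Ts1 as deposited, where 86.4% of all genes were lower. At least 2-fold lower were 4 of the 8, namely PDX1, LAT1, LPD1 and PTC5, beside 55.9% of all genes, and 0 of 8 were at least 2-fold higher, beside 3.67% of all genes. At 1.5-fold 6 of the 8 were lower, beside 72% of all genes, and at 3-fold PDX1 and LAT1 were, beside 25.8%. Centred on the all-gene median, 0 of the 8 were at least 2-fold lower, beside 6.61% of all genes. The median log2 ratio of the 8 genes was -1.04, close to that of all genes, and centred on the all-gene median it turned to 0.088. Without regard to signal, the 8 genes as a set therefore stood near the background of all genes. Their median wild-type intensity, however, was 1973 against 586 for all genes, and ratios varied with signal. With the trend of ratio with level removed, as described below, the median of the set was -0.40, beside -0.012 for all genes. The log2 ratios of the 8 genes as deposited spanned 1.48, from PDX1 to PDA1.

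**Figure D1:**
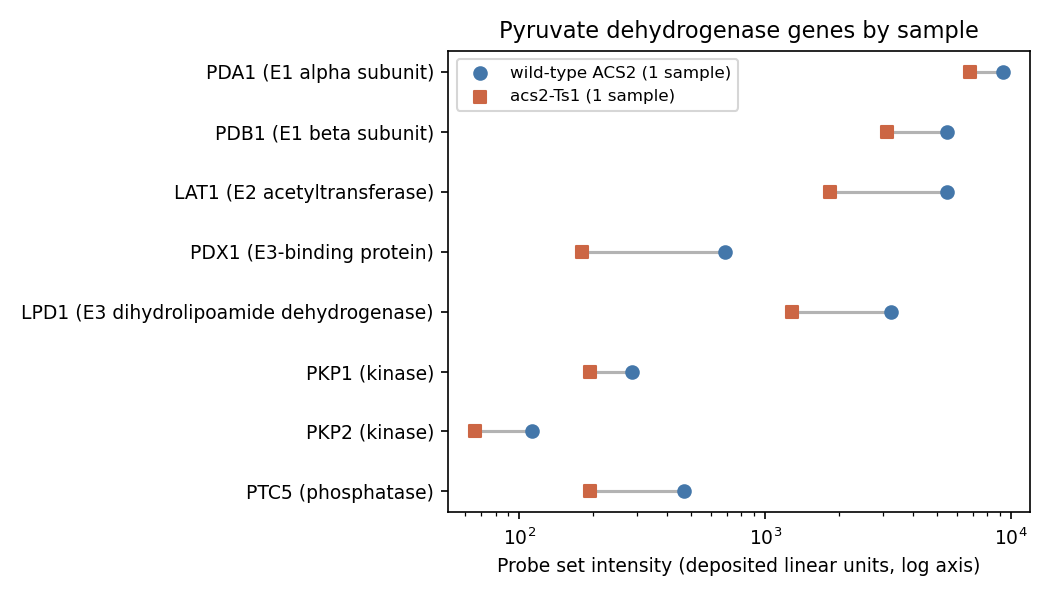
Probe set intensity of each gene on a log axis, with circles for the wild-type ACS2 sample and squares for the acs2-Ts1 sample, 1 sample each and no error bars. The acs2-Ts1 point lies left of the wild-type point for each of the 8 genes as deposited (relative to the all-gene median, PDA1, PDB1, PKP1 and PKP2 turn higher), with the widest gap at PDX1 (688 and 181). Points of different genes come from different probes, and their positions are not compared.

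The E1 genes had the smaller differences among the subunits. PDA1, for the alpha subunit that carries the regulatory phosphorylation, read 9301 in wild type and 6804 in the mutant, giving a log2 ratio of -0.45 or 1.37-fold lower. PDB1, for the beta subunit, read 5466 and 3126, a log2 ratio of -0.81 or 1.75-fold lower. The mutant sample thus held 73.2% and 57.2% of the wild-type signal. The partners of this heterotetramer differed from each other by 0.36 on the log2 scale, less than the pooled SD between probe sets of a gene. Relative to the all-gene median both turned to higher, by 0.67 for PDA1 and 0.32 for PDB1.

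The genes of the E2 and E3 side of the complex were lower by more as deposited. LAT1, for the acetyltransferase, read 5504 in wild type and 1829.8 in the mutant, giving a log2 ratio of -1.59 or 3.01-fold lower. PDX1, for the protein that tethers E3 to the E2 core, read 688 and 181, a log2 ratio of -1.93 or 3.81-fold lower. LPD1, for the dihydrolipoamide dehydrogenase that other complexes also use, read 3258 and 1279.6, a log2 ratio of -1.35 or 2.55-fold lower. These 3 genes were lower relative to the all-gene median too, with -0.46 for LAT1, -0.81 for PDX1 and -0.22 for LPD1. PDX1 and LAT1, whose products bind each other in the core, differed by 0.34, whereas LAT1 lay 1.14 below PDA1 and PDX1 lay 1.12 below PDB1. The gap between PDX1 and PDB1 is between genes of unlike signal, with which ratios varied on these arrays. With the trend of ratio with signal removed, as described below, PDX1 and LPD1 were at -0.61. PDB1 was near them at -0.42, while LAT1 stood further off at -1.08.

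Of the 3 genes that control the complex, the phosphatase gene was lower by more than the kinase genes as deposited. PKP1 read 288 in wild type and 195 in the mutant, giving a log2 ratio of -0.56 or 1.48-fold lower, and PKP2 read 112 and 65.9, a log2 ratio of -0.77 or 1.70-fold lower. These 2 kinase genes differed from each other by 0.21, and relative to the all-gene median they turned to higher, by 0.56 and 0.36. PTC5 read 466 and 194, a log2 ratio of -1.27 or 2.41-fold lower, and -0.14 relative to the all-gene median. PTC6, for the other phosphatase of the complex, was close to it, with 603 and 246 and a log2 ratio of -1.30. The phosphatase gene PTC5 lay 0.70 below PKP1 and 0.50 below PKP2. Within groups of like mean level, described below, PTC5 and PKP2 had 53.5% and 54.0% of the other genes below them. By wild-type level these shares were 54.2% and 38.4%, so the order of these 2 genes against their signal range depended on the grouping. The 8 genes read above the background limit in both samples, the 95th percentile of probe sets for genes outside the species, at 49.1 for wild type and 46.3 for the mutant. The mutant reading of PKP2, however, did not exceed the 77.5 of the deleted LEU2. With background subtracted, the log2 ratio of PKP2 became -0.90.

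Ratios on these arrays varied with signal, being nearest 0 for bright probe sets, so each member was also set against genes of like level. For this the genes were divided by mean level into 10 groups of 544 or 545. In the brightest of these groups, which holds PDA1, PDB1 and LAT1, the median log2 ratio was -0.18 and 6.42% of genes were at least 2-fold lower. LAT1 had the lowest ratio of that group, with 0 of 544 other genes below it. LAT1 lies near its lower edge, and among the nearest 544 genes by mean level 9 had a lower ratio. By wild-type level, 11 of the 544 other genes of its group and 15 of the nearest 544 were lower. LAT1 therefore had one of the lowest ratios among genes of its signal range under each of the 4 groupings, a position that its rank among all genes, where 1392 were lower, does not show.

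The other members stood less far out in their signal range. PDB1 had 13.1% of the genes in its level group below it, PDX1 13.1% and LPD1 14.2%, while PDA1 had 32.7%. On the regulators' side, PTC5 had 53.5% and PKP2 54.0% of their level groups below them, and PKP1 had 90.3%. The level group of PKP1 had a median log2 ratio of -1.43 against its own -0.56. Grouped by the wild-type level, the figures were 14.4% for PDX1, 25.2% for LPD1, 23.5% for PDB1 and 44.1% for PDA1. For the regulators they were 54.2% for PTC5, 38.4% for PKP2 and 84.4% for PKP1. Among the nearest 544 genes, PKP2 had 75.6% below it by mean level and 66.2% by wild-type level, so its place depended on the grouping, and PDB1 had 23.9% and 30.0%.

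**Figure D2:**
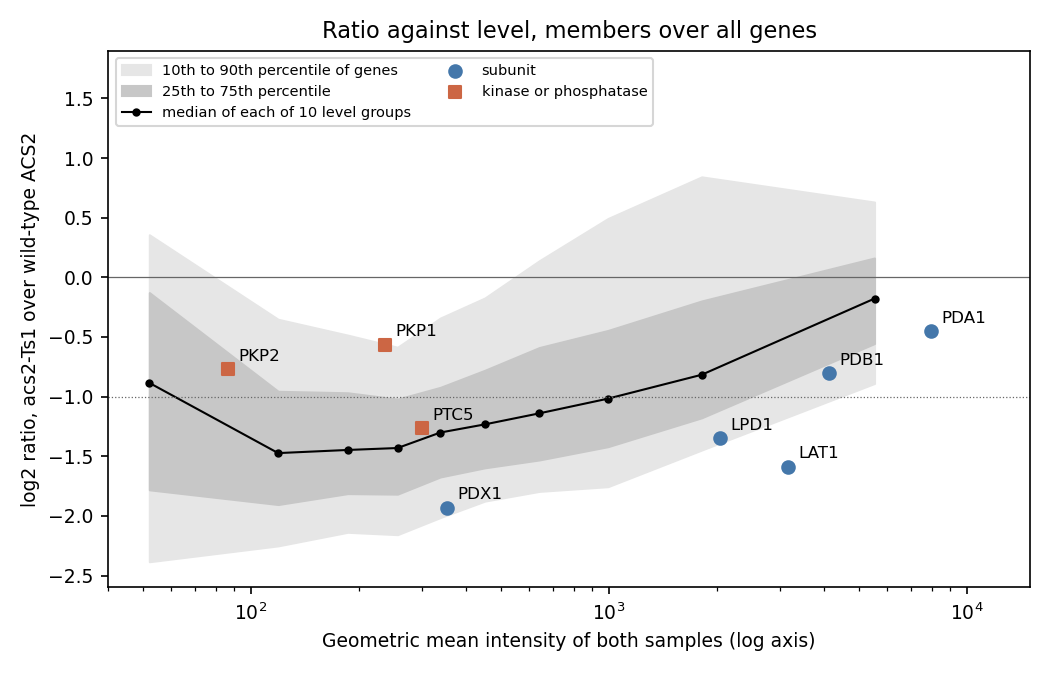
Log2 ratio, acs2-Ts1 relative to wild-type ACS2, against the geometric mean intensity of both samples (log axis), with the black line for the median of each of 10 level groups of the 5449 genes, the grey bands for the percentiles of genes named in the legend, circles for subunit genes and squares for kinase and phosphatase genes. PDB1, LAT1, LPD1 and PDX1 lie below the line, LAT1 farthest, and PDA1 lies beyond its right end and below its last point, while PKP1 lies well above it and PTC5 beside it, and the dotted line marks a 2-fold lower level.

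With the trend of ratio with level removed by a lowess curve, the subunit genes lay below 0 and PKP1, PKP2 and PTC5 above it. On this scale 2776 of all 5449 genes lay below 0 and 2673 above it. PDA1, PDB1 and PTC5 lay nearer to 0 than 0.43, the pooled SD between probe sets of a gene. The 5 subunit genes ran from -1.08 for LAT1 to -0.38 for PDA1, with -0.61 for PDX1, -0.61 for LPD1 and -0.42 for PDB1. The control genes ran from 0.11 for PTC5 through 0.59 for PKP2 to 0.86 for PKP1, while PTC6, the other phosphatase gene, was at -0.0095. At least 2-fold lower on this scale was 1 of the 8 genes, LAT1, beside 4.06% of all genes. On the deposited scale the 2 groups overlapped, with medians of -1.35 for the subunits and -0.77 for the regulators, and centred on the all-gene median they overlapped as well. Against the median of its group by wild-type level, PKP2 lay at -0.30, so its side depended on the method. The difference between the roles was not tested.

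**Figure D3:**
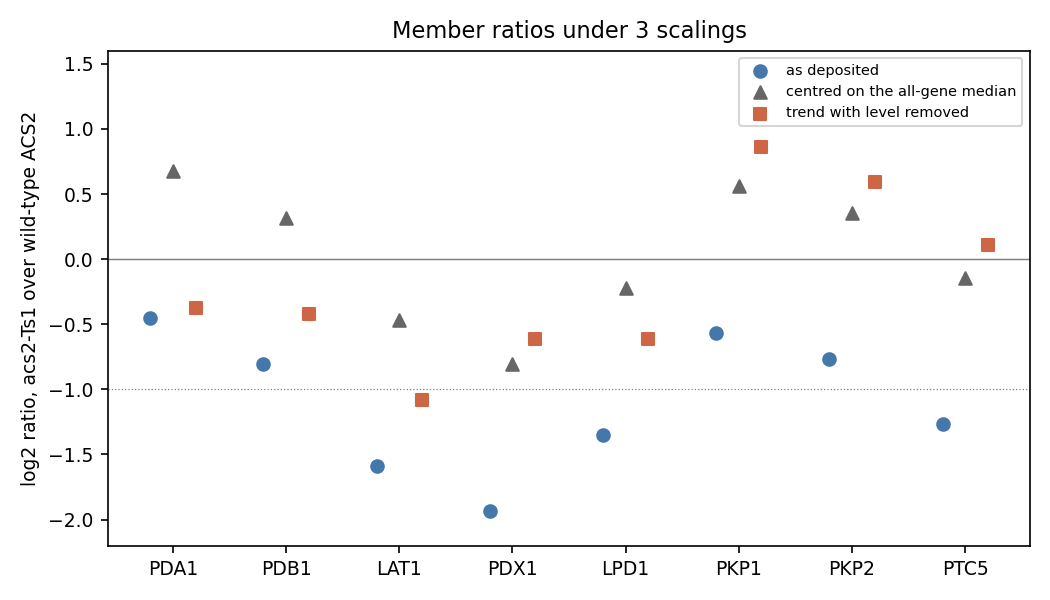
Log2 ratio, acs2-Ts1 relative to wild-type ACS2, for each gene on 3 scales, with circles as deposited, triangles centred on the all-gene median and squares with the trend with level removed. LAT1, PDX1 and LPD1 are below 0 on each scale, PDA1 and PDB1 are above 0 only when centred, PKP1 and PKP2 are below 0 only as deposited, and PTC5 is above 0 (0.11) only with the trend removed.

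LPD1 also serves the 2-oxoglutarate dehydrogenase and the glycine decarboxylase, and as deposited its ratio of -1.35 lay nearer to the ratios of the former. The genes of 2-oxoglutarate dehydrogenase, which acts in the tricarboxylic acid cycle, each passed the 2-fold mark. KGD1 read 1930.2 and 891, KGD2 1436 and 665, and KGD4, for a small subunit that recruits Lpd1, 638 and 232. Their log2 ratios were -1.11, -1.11 and -1.46. The glycine decarboxylase genes GCV1, GCV2 and GCV3 were within 2-fold, with log2 ratios of -0.20, -0.49 and -0.49. With the trend with level removed, LPD1 was at -0.61, and KGD1, KGD2 and KGD4 were at -0.19, -0.09 and -0.17. GCV1, GCV2 and GCV3 were then at 0.67, 0.0049 and -0.30, so the gene nearest to LPD1 was GCV3. Of these 6 genes, 3 were at least 2-fold lower and 0 higher, near the 55.9% and 3.67% of all genes, and the median of -0.80 was 0.32 above that of all genes.

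Lipoate, the arm on which the E2 component works, is attached and made in mitochondria with the help of mitochondrial fatty acid synthesis. Each of the 10 measured genes of that supply was at least 2-fold lower as deposited, beside 55.9% of all genes, with a median log2 ratio of -1.46, which is -0.33 relative to all genes. LIP2, which loads octanoyl groups onto proteins, read 271 and 68.9, 3.94-fold lower, but its mutant reading did not exceed the 77.5 of the deleted LEU2. CEM1, a condensing enzyme of mitochondrial fatty acid synthesis, read 232 and 27.5, the latter below background. The genes nearest 0 were PPT2, which activates the mitochondrial acyl carrier protein, at -1.08, and LIP5, the lipoate synthase, at -1.01. AIM22, at 141 and 36.2, was also below background in acs2-Ts1, and both it and CEM1 are counted among the 10. Centred on the all-gene median or with the trend with level removed, 1 of the 10 was at least 2-fold lower, beside 6.61% and 4.06% of all genes. That gene was CEM1, so the call rests on a reading below background. Centring turned LIP5 (0.12) and PPT2 (0.043) to higher. Removal of the trend turned 3 genes to higher, LIP5 (0.39), PPT2 (0.32) and OAR1 (0.32), the last named after its value was seen. The carriers that bring cofactors into mitochondria were lower as deposited, with 1 of 4 genes at least 2-fold lower, beside 55.9% of all genes, and a median of -0.82 that turned to 0.30 when centred and to 0.46 with the level trend removed. TPC1, for thiamine diphosphate, had a log2 ratio of -1.19, LEU5, for coenzyme A, -0.72, and the NAD carriers YIA6 and YEA6 -0.74 and -0.90.

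Upstream of the complex, pyruvate enters mitochondria through a carrier of Mpc1 paired with Mpc2 or Mpc3, and these 3 genes diverged. MPC1 read 1534 in wild type and 499 in the mutant, giving a log2 ratio of -1.62 or 3.08-fold lower. MPC2 read 3765 and 7254, a log2 ratio of 0.95 or 1.93-fold higher. MPC3, for the form known from respiratory growth, read 202 and 1312, a log2 ratio of 2.70 or 6.50-fold higher. The directions of these 3 genes were the same when centred on the all-gene median (-0.50, 2.07 and 3.82) and after removal of the level trend (-0.57, 1.22 and 3.89). The pyruvate kinase CDC19 read 13629 and 14003, and its minor form PYK2 had a log2 ratio of -0.69. Of these 5 genes, MPC1 alone was at least 2-fold lower and MPC3 alone at least 2-fold higher, beside 55.9% and 3.67% of all genes, and the median was 0.04.

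The route that runs parallel to the complex was near the wild-type level as deposited. Of 11 genes for pyruvate decarboxylase, aldehyde dehydrogenases, acetyl-CoA synthetases and the acetyl-CoA hydrolase ACH1, some of them mitochondrial, 1 was at least 2-fold lower and 0 higher, beside 55.9% and 3.67% of all genes, and the median was 0.01 on the log2 scale (1.13 when centred on all genes). The main pyruvate decarboxylase PDC1 read 16631 and 15882, a log2 ratio of -0.07, and the cytosolic aldehyde dehydrogenase ALD6 read 9198 and 12478, a log2 ratio of 0.44. The minor decarboxylase PDC6 had 0.40, and ALD5 and ALD2 had -0.58 and -1.12. ACS2 itself had a log2 ratio of 0.28 and ACS1 0.33. PDC1, ALD4, ALD6 and ACS2 are in the brightest level group, where the median was -0.18 and 6.42% of genes were at least 2-fold lower. With the trend with level removed, the median of the 11 genes was 0.74. On that scale PDC1, at -0.32, was the 1 gene of the 11 below 0, while ALD6 was at 0.38 and ACS2 at 0.19.

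Among 8 other enzymes that make or use pyruvate, 3 passed 2-fold downward and 1 upward, beside 55.9% and 3.67% of all genes, and the median log2 ratio was -0.68 (0.45 when centred on all genes). The higher gene was PYC1, for a cytosolic pyruvate carboxylase, which read 4482 and 9267, 2.07-fold higher, while its paralogue PYC2 read 1902 and 1478. MAE1, the mitochondrial malic enzyme that yields pyruvate, read 2256 and 897, 2.52-fold lower. CYB2, a lactate dehydrogenase counted among the 3 lower genes, read 64.7 and 19.1, the latter below background. Downstream of the complex, 11 genes from citrate synthase through the tricarboxylic acid cycle were measured. Of these, 3 were at least 2-fold lower and 0 higher, beside the same shares of all genes, and the median log2 ratio was -0.34 (0.78 when centred on all genes). The early enzymes aconitase ACO1 and isocitrate dehydrogenase IDH1 had log2 ratios of 0.35 and 0.49, and CIT1, the citrate synthase that consumes the acetyl-CoA of the complex, 0.13, a gene named after its value was seen. The late enzymes fumarase FUM1 and malate dehydrogenase MDH1 had -1.66 and -1.32. ACO1, IDH1 and CIT1 are in the brightest level group, with a median of -0.18, and FUM1 and MDH1 in the next, with -0.82. With the trend with level removed, the median of the 11 genes was 0.35. On that scale ACO1, IDH1 and CIT1 were at 0.35, 0.77 and 0.52, and FUM1 and MDH1 at -0.97 and -0.58.

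**Figure D4:**
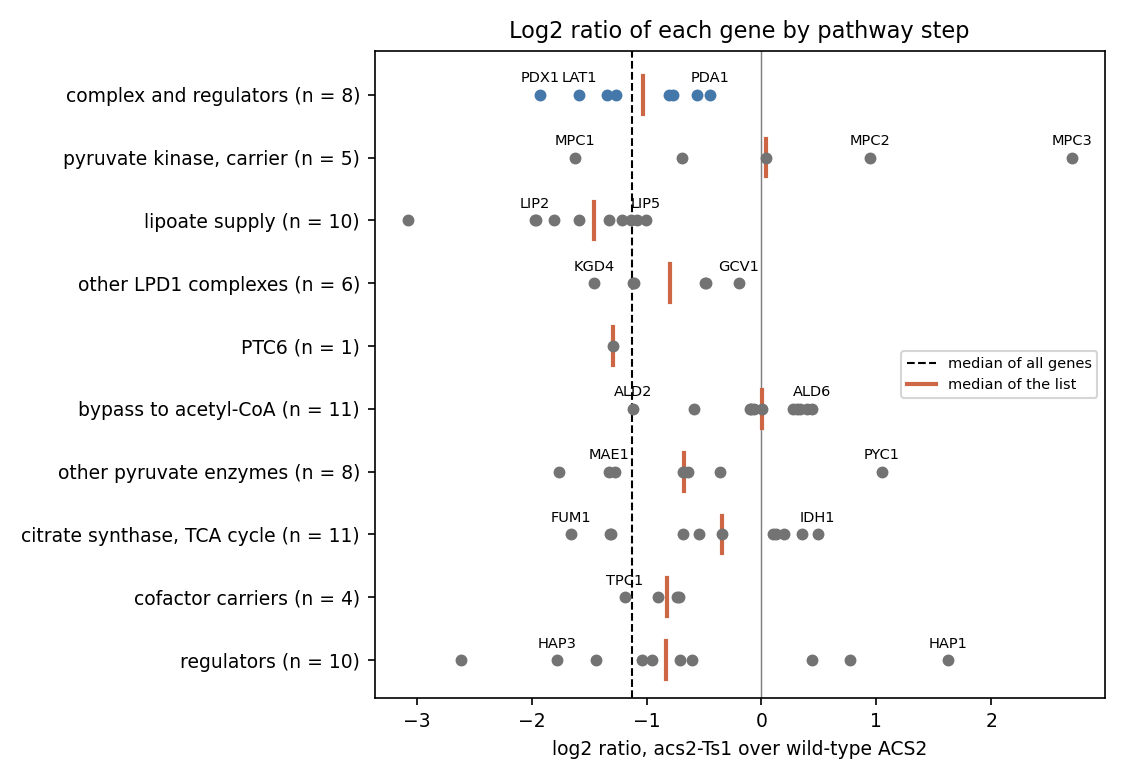
Log2 ratio, acs2-Ts1 relative to wild-type ACS2 as deposited, 1 point per gene and 1 row per pathway step, with a vertical bar for the median of each list, a dashed line for the median of all genes (-1.12) and a solid line at 0. The 8 genes of the complex and its regulators lie between -1.93 and -0.45 while MPC3 reaches 2.70, and 4 points (AIM22, CEM1, CYB2 and HAP5) rest on an acs2-Ts1 reading below background. Against the dashed line the genes of the parallel route lie to the right or, for ALD2, on it, and the lipoate genes on both sides of it.

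Regulators of respiratory and carbon genes were measured as transcripts only. Of 10, 4 passed 2-fold downward and 1 upward, beside 55.9% and 3.67% of all genes, and the median log2 ratio was -0.83 (0.29 when centred on all genes). Subunits of the CCAAT-binding HAP complex, an activator of respiratory genes, differed in direction as deposited. HAP4, its activation subunit, read 178 and 304, a log2 ratio of 0.77, whereas HAP3 read 211 and 61.2, a log2 ratio of -1.78. The mutant reading of HAP3 did not exceed the 77.5 of the deleted LEU2. HAP5, counted among the 4 lower genes, read 273 and 44.4, the latter below background. The transcript of HAP1, a gene named for a haem-responsive regulator, was 3.08-fold higher, at 1528 and 4709. Whether the HAP1 allele of these strains gives a working regulator was not tested. Of 15 measured protein-coding genes next to the 8 genes of the complex on the chromosomes, 8 were at least 2-fold lower, near the 55.9% of all genes, and their median log2 ratio was -1.01.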

How the data were processed

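The authors deposited probe set intensities on a linear scale. Per the series' design text and the labels, 4 arrays were background-corrected with RMA (also named in the submitters' processing notes), 2 arrays per strain were averaged, and the means were normalized with a lowess curve on controls. For the controls, the summary step and the versions, the sources used here give nothing. The normalization was kept, so any fault in it reaches all genes of a sample.

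Of 10928 probe sets, 5498 matched 5449 genes through the platform annotation and RefSeq's R64 gene table. For genes with several, the brightest without a suffix letter was used. The background limit is the 95th percentile of 1746 probe sets for genes outside the species. No fold is given where the dimmer value lay below it, but such genes stay in the counts. Ratios are log2 of acs2-Ts1 over wild type without a pseudocount, and a gene was counted past 2-fold. Groups come from the genotype labels, since both titles read wild type. Genes of like level are groups of 544 or 545 genes divided by mean level. Named genes are the 8 members, every gene of lists with up to 6 measured genes, the 2 highest and 2 lowest of longer lists, and ACS1, ACS2, PDC1 and ALD6. Members and lists were chosen with earlier results of these data known. The list of 11 lipoate names held 10 genes, because LIP3 is a synonym of AIM22. No promoter or protein sequences were used here, so the planned motif search was not run. The counting was tested on simulated data. Alternatives were other centrings, lowess (span 0.3), background subtraction, a pseudocount of 32, other probe set rules, level filters and thresholds of 1.5-fold and 3-fold. Python 3.11.15, pandas 2.3.3 and statsmodels 0.14.6 were used. The number of arrays limits the precision.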

Additional observations from a re-analysis of the deposited data

How the results depend on the processing

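With ratios centred on the median of all genes, the median log2 ratio of the 8 genes turned from -1.04 to 0.088, and the number at least 2-fold lower went from 4 to 0, beside 6.61% of all genes. The ratios were then 0.67 for PDA1, 0.32 for PDB1, -0.46 for LAT1, -0.81 for PDX1, -0.22 for LPD1, 0.56 for PKP1, 0.36 for PKP2 and -0.14 for PTC5. With the trend with level removed, the median was -0.40 and 1 gene was at least 2-fold lower, and the ratios were -1.08 for LAT1, -0.61 for PDX1, -0.61 for LPD1, 0.86 for PKP1, 0.59 for PKP2 and 0.11 for PTC5. These shifts follow from the construction of both alternatives. At the 3-fold threshold 2 genes were lower, beside 25.8% of all genes, and at 1.5-fold 6 were, beside 72% of all genes. Centring on hybridization or bright controls, subtracting background, a pseudocount and leaving out PKP2, the member under the 25th percentile in both samples, moved none of these results by more than the pooled SD between probe sets of a gene, and left the counts at 4 and 0. Among the centrings on controls, background subtraction and the pseudocount, the share of all genes at least 2-fold lower ran from 50.0% to 58.5%. The share at least 2-fold higher ran from 3.27% to 4.77%. The other probe set rules and the filter on background could change nothing, because each member has 1 probe set and reads above background in both samples. The groupings by wild-type level and by nearest genes were chosen after seeing the data. No paired analysis was possible because each group is 1 sample, and no replicate could be left out for the same reason.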
